A study of Mus musculus with 12 samples.

Results

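Pou3f1, Otx2, Fgf5, Lef1, Sox3, Zic2, Zic5, Cdh2 and Cdh1, a set of genes read as markers of the formative and primed epiblast, were followed in paused mouse embryonic stem cells. These 9 genes, of 24421 in the count table, were chosen by name with earlier results of these data known. Each has a row of its own there. PolyA RNA came from 12 libraries of E14, a mouse embryonic stem cell line grown on gelatin with serum and LIF. All 12 carry dCas_Alkbh5, a fusion of Cas without cutting activity and Alkbh5, an eraser of the m6A mark on RNA. All were selected with 8 μg/mL blasticidin for 3 days after receiving a guide plasmid and then paused for 5 days with 200 nM INK128, which blocks the growth kinase mTOR. The 4 control libraries received a guide with no target (NT), 4 libraries received Mycn-gRNA2 and 4 received Mycn-gRNA3. The labels name no unpaused group, no other control guide and no separate cultures, so the p-values speak of the spread among these libraries alone, which can be technical.

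As background, naive cells of the early epiblast pass through a formative state before the primed state from which the germ layers arise. Otx2 and Pou3f1 are transcription factors that take part in leaving the naive state, and Fgf5 is the growth factor most often read as its end. Sox3, Zic2, Zic5 and Lef1 join them in the epiblast and are used again in the neural plate, and Cdh2 and Cdh1 encode the cadherins N-cadherin and E-cadherin, whose balance shifts as epithelial cells leave the epiblast. The design addresses what steering an m6A eraser to the transcript of Mycn, a growth-promoting MYC family factor, does in paused cells.

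With the Mycn guides, Lef1, Sox3, Cdh2, Pou3f1 and Cdh1 rose, while Zic2 fell and Otx2 and Zic5 did not pass the test. The fitted rises were 4.49-fold for Lef1, 4.03-fold for Sox3, 2.45-fold for Cdh2, 2.29-fold for Pou3f1 and 1.27-fold for Cdh1, and the intervals of the first 4 overlapped. These differences are relative to the transcriptome, meaning that each library was scaled by TMM factors over its own genes. Levels below are CPM, TMM-scaled reads per 1000000. A call was an adjusted p under 0.05 in edgeR's quasi-likelihood test over 14497 genes. Fgf5 did not pass the filter on low counts, so 8 of the 9 genes were tested, and these 8 were above the filter's cutoff in all 4 NT libraries. Of the 8, 5 were higher and 1 lower with both guides against NT, where 14.9% of all tested genes were higher and 13.0% lower. The genes, like the other lists below, were chosen with earlier results known, so such shares are descriptions and no test of a set. The median log2 fold change of the 8 was 0.77, beside 0.00 (-0.0027) over all tested genes.

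**Figure D1:**
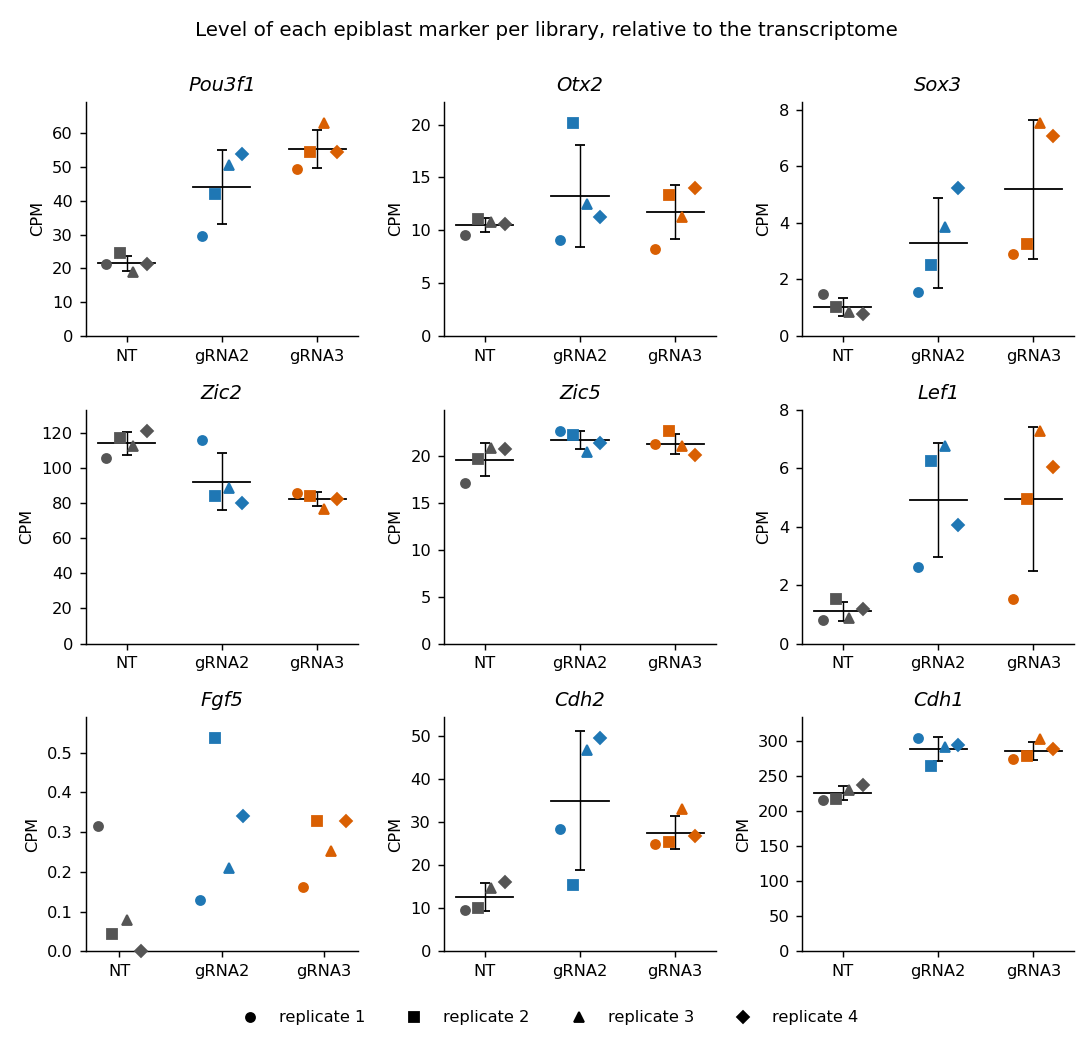
CPM (reads per 1000000, TMM-scaled) of each of the 9 genes in the 4 NT, 4 Mycn-gRNA2 and 4 Mycn-gRNA3 libraries, with a marker shape per replicate number, the group mean as a horizontal line and the SD as a bar (none for Fgf5). All 8 guide libraries stand above all 4 NT libraries for Pou3f1, Sox3, Lef1 and Cdh1, for Lef1 by 1.53 against 1.52 CPM only.

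Mycn itself, the gene the guides address, was present at 141 ± 4.17 CPM in NT libraries, and at 236 ± 26.7 and 276 ± 16.7 CPM in those of Mycn-gRNA2 and Mycn-gRNA3 (SD, n = 4). The libraries held from 17248564 to 33819855 reads on genes and from 260152 to 407521 reads on ERCC RNAs, synthetic RNAs added in a fixed amount to RNA from equal numbers of cells. Pou5f1, Sox2, Nanog and Zfp42, defining genes of embryonic stem cells, were present in every library, with summed levels of 2344 to 2702 CPM in NT, 1741 to 2268 CPM with Mycn-gRNA2 and 2268 to 2435 CPM with Mycn-gRNA3. The summed level of 4 Y-linked genes, Kdm5d, Eif2s3y, Ddx3y and Uty, was 0.0448 to 0.181 CPM in the NT libraries and 32.4 to 83.7 CPM in the guide libraries. Every comparison of a Mycn guide with NT therefore also compares libraries that differ in these transcripts, and these differences cannot be told apart. In bulk samples, fewer cells of a type and less RNA per cell cannot be told apart either.

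Pou3f1, a POU-domain factor also called Oct6, is a gene of 1 exon on chromosome 4, positions 124657646 to 124660655 of mm10, plus strand. It had 21.3, 24.4, 18.9 and 21.4 CPM in NT replicates 1 to 4. The Mycn-gRNA2 libraries had 29.6, 42.0, 50.7 and 53.9 CPM, and the Mycn-gRNA3 libraries 49.4, 54.4, 63.0 and 54.3 CPM. The groups did not overlap, and the guide library closest to the controls was Mycn-gRNA2 replicate 1. Pou3f1 rose, with a log2 fold change of 1.20 for both guides (edgeR, SE 0.139, adjusted p = 4.55e-05), 1.03 for Mycn-gRNA2 (adjusted p = 0.00054) and 1.36 for Mycn-gRNA3 (adjusted p = 4.78e-05). Its rise with both guides passed the test under all 18 alternatives. From replicates 1 and 2 alone it passed narrowly, with a difference of 0.92 (edgeR adjusted p = 0.0495). No other member passed there, and Cdh2, with a larger difference of 1.26, narrowly missed (edgeR adjusted p = 0.0594).

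Otx2, a homeobox factor, lies on the minus strand of chromosome 14, positions 48657677 to 48667644. Its levels were 9.52, 11.0, 10.8 and 10.6 CPM in NT. With Mycn-gRNA2 it had 9.08, 20.1, 12.5 and 11.3 CPM, and with Mycn-gRNA3 8.27, 13.4, 11.3 and 13.98 CPM. Replicate 1 of each guide was below every NT library and the other 6 guide libraries were above every NT library, so the groups overlapped. The difference with both guides was 0.25 on the log2 scale, with a 95% interval from -0.15 to 0.64 (SE 0.184, edgeR adjusted p = 0.342). That interval holds rises of up to 1.56-fold, so the missing call does not show that Otx2 was level. Without Mycn-gRNA2 replicate 2, the library with the highest Otx2, the difference with both guides was 0.12 and that with Mycn-gRNA2 0.07.

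Sox3, an HMG-box factor of the SoxB1 family, has 1 exon on chromosome X, positions 60891366 to 60893430, minus strand. It had 1.49, 1.03, 0.831 and 0.791 CPM in NT, which is 33, 23, 21 and 18 reads. The Mycn-gRNA2 libraries had 1.56, 2.50, 3.84 and 5.25 CPM, and the Mycn-gRNA3 libraries 2.90, 3.24, 7.53 and 7.06 CPM. All guide libraries were above all NT libraries, but Mycn-gRNA2 replicate 1 held hardly more reads than NT replicate 1, 36 against 33. Sox3 rose, with a log2 fold change of 2.01 for both guides (edgeR, SE 0.385, adjusted p = 0.00179), 1.69 for Mycn-gRNA2 (adjusted p = 0.0156) and 2.33 for Mycn-gRNA3 (adjusted p = 0.00126). Without NT replicate 3 or Mycn-gRNA2 replicate 4 the call with Mycn-gRNA2 was lost (edgeR adjusted p = 0.052 and 0.0565), and over its 19 alternatives that adjusted p ran from 1.18e-07 to 0.451.

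Zic2 and Zic5 are zinc-finger factors that lie beside each other on chromosome 14 and point away from each other: Zic5 from 122459160 to 122465658 on the minus strand and Zic2 from 122475384 to 122480328 on the plus strand, 9725 bases apart. Zic2 had 106, 117, 112 and 121 CPM in NT, 116, 83.8, 88.7 and 79.8 CPM with Mycn-gRNA2 and 85.8, 84.1, 76.9 and 82.0 CPM with Mycn-gRNA3. In 7 of the 8 guide libraries it was below every NT library, and Mycn-gRNA2 replicate 1 lay among the controls. Zic2 fell, with a log2 fold change of -0.39 for both guides (edgeR, SE 0.085, adjusted p = 0.00407) and -0.47 for Mycn-gRNA3 (adjusted p = 0.00383). With Mycn-gRNA2 it fell by 0.31 (edgeR adjusted p = 0.047), a call that 14 of 19 alternatives ended. Without Mycn-gRNA2 replicate 1 that fall was 0.44 (edgeR adjusted p = 0.000177), and without any other single library the call was lost.

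Zic5 had 17.1, 19.7, 20.8 and 20.7 CPM in NT, 22.6, 22.2, 20.4 and 21.4 CPM with Mycn-gRNA2 and 21.2, 22.6, 21.02 and 20.1 CPM with Mycn-gRNA3. The groups overlapped, although 6 guide libraries exceeded the highest NT library. Its difference with both guides was 0.13 on the log2 scale, with an interval from -0.02 to 0.28 (SE 0.0689, edgeR adjusted p = 0.182). The reads of the 2 neighbours were also compared within each library, which needs no scaling between libraries. This ratio was chosen with earlier results of both genes known and restates their differences, so its p-values are no further support for them.

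The ratio of Zic2 to Zic5 reads was 6.18, 5.94, 5.38 and 5.84 in NT. It was 5.11, 3.78, 4.34 and 3.73 with Mycn-gRNA2 and 4.04, 3.72, 3.65 and 4.08 with Mycn-gRNA3. Every guide library was below every NT library. The log2 ratio fell by 0.53 with both guides (SE 0.0709, exact two-sided permutation p = 0.00202, the smallest that 495 rearrangements can give). It fell by 0.47 with Mycn-gRNA2 and by 0.59 with Mycn-gRNA3 (exact permutation p = 0.0286 each, the smallest that 70 rearrangements can give). Adjusted over the 8 ratio tests, these p-values were 0.0162, 0.0457 and 0.0457. The rearrangements treat all libraries as independent. With the replicate number as a block, the fall of 0.53 had an exact sign-flip p of 0.125, the lowest that 4 pairs can give.

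Lef1 is a nuclear effector of Wnt signalling that binds DNA beside beta-catenin. Its gene lies on chromosome 3, positions 131110297 to 131224357 of mm10, plus strand. Of the 9 genes, it is the one with the largest rise whose start in the count table also has a RefSeq promoter entry. The 250 bases before its start are shown beside those before the start of Otx2, which passed no test relative to the transcriptome, each with its CG dinucleotides in capitals. Both are read 5′ to 3′ on the gene's strand, from RefSeq on GRCm38.p6, at chr3:131110047-131110296 for Lef1 and chr14:48667645-48667894 for Otx2.
Lef1: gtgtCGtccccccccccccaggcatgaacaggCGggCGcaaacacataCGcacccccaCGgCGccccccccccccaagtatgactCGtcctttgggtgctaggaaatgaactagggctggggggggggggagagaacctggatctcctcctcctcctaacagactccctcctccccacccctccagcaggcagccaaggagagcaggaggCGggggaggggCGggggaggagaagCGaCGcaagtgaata
Otx2: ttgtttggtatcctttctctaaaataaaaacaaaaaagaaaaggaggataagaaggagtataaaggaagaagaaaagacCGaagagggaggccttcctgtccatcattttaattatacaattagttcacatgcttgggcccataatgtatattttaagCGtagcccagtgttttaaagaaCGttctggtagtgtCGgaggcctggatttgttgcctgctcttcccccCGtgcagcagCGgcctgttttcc
The Lef1 stretch holds 11 CG dinucleotides at 66.4% G and C, and the Otx2 stretch 6 at 42.0%. The median over 32851 mouse promoters of that length is 6 CG dinucleotides, with quartiles of 2 and 16. Matching starts were also found for Zic5, with 11 CG dinucleotides, and Fgf5, with 24. On either strand of these 4 stretches there was no CACGTG (the E-box of MYC family factors, present in 6.02% of all promoters), no CTTTGAT (a TCF and LEF motif, 3.21%) and no ATGCAAAT (the octamer of POU factors, 1.60%). That says only that these letters are not in these windows.

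Lef1 had 0.812, 1.52, 0.870 and 1.19 CPM in NT, from 18 to 34 reads a library. With Mycn-gRNA2 it had 2.61, 6.25, 6.76 and 4.04 CPM, and with Mycn-gRNA3 1.53, 4.95, 7.27 and 6.05 CPM. Replicate 1 was the lowest library of each guide group, and that of Mycn-gRNA3 was level with the highest NT library, 1.53 against 1.52 CPM. Lef1 rose, with a log2 fold change of 2.17 for both guides (edgeR, SE 0.40, adjusted p = 0.00141), 2.15 for Mycn-gRNA2 (adjusted p = 0.00453) and 2.18 for Mycn-gRNA3 (adjusted p = 0.00256).

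Fgf5, on the plus strand of chromosome 5, positions 98254184 to 98277033, gave 67 reads in all 12 libraries together. NT libraries held 7, 1, 2 and 0 reads, Mycn-gRNA2 libraries 3, 9, 5 and 9, and Mycn-gRNA3 libraries 4, 9, 7 and 11. The groups overlapped because NT replicate 1 alone held 7 of the 10 control reads. Per gene read of the libraries, Fgf5 reads were 2.60 times as frequent with the guides, with an exact 95% counting interval from 1.32 to 5.71 that covers counting error only. Without NT replicate 1, which leaves 3 control reads, the ratio was 6.54 (2.13 to 32.6), a setting chosen after the data were seen. With no filter on low counts, over 21095 genes, its difference with both guides was 1.34 in log2 units (edgeR, SE 0.562, adjusted p = 0.115). Fgf5 was therefore not called relative to the transcriptome (unadjusted p = 0.0291).

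Cdh2 encodes N-cadherin and lies on chromosome 18, positions 16588877 to 16809049, minus strand. It had 9.61, 10.0, 14.7 and 16.2 CPM in NT. The Mycn-gRNA2 libraries had 28.4, 15.4, 46.6 and 49.3 CPM, and the Mycn-gRNA3 libraries 24.8, 25.3, 33.0 and 26.7 CPM. In 7 of 8 guide libraries it was above every NT library, while Mycn-gRNA2 replicate 2 lay between NT replicates 3 and 4. Cdh2 rose, with a log2 fold change of 1.30 for both guides (edgeR, SE 0.269, adjusted p = 0.00335), 1.47 for Mycn-gRNA2 (adjusted p = 0.00478) and 1.12 for Mycn-gRNA3 (adjusted p = 0.0141).

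Cdh1 encodes E-cadherin and lies on chromosome 8, positions 106603368 to 106670246, plus strand. It had 217, 218, 231 and 238 CPM in NT, 304, 265, 293 and 295 CPM with Mycn-gRNA2 and 275, 279, 303 and 288 CPM with Mycn-gRNA3. The groups did not overlap. Cdh1 rose, with a log2 fold change of 0.35 for both guides (edgeR, SE 0.0538, adjusted p = 0.000395), 0.36 for Mycn-gRNA2 (adjusted p = 0.00147) and 0.34 for Mycn-gRNA3 (adjusted p = 0.00133). The 768 tested genes of chromosome 8 had a median of -0.11 in the same comparison. Medians of the other tested members' chromosomes ran from -0.08 for chromosome 14 to 0.05 for chromosome 3, with -0.03 for chromosome X.

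Both cadherins rose, so their balance was read within each library. Like the Zic ratio, this one was chosen with earlier results known and restates the differences of its genes. Its p-values are therefore no further support for them. Cdh2 reads were 4.45%, 4.61%, 6.37% and 6.81% of Cdh1 reads in NT, 9.34%, 5.81%, 15.9% and 16.7% with Mycn-gRNA2 and 9.00%, 9.08%, 10.9% and 9.25% with Mycn-gRNA3. All guide libraries but Mycn-gRNA2 replicate 2 were above every NT library. The log2 ratio was higher by 0.90 with both guides, or 1.87-fold (SE 0.235, exact two-sided permutation p = 0.0141, adjusted p = 0.0457 over the 8 ratio tests). This call was lost without any one of the 4 NT libraries or without Mycn-gRNA3 replicate 3, with exact permutation p-values adjusted to 0.0571 to 0.0914 and differences of 0.81 to 1.01. With Mycn-gRNA3 it was higher by 0.80 (exact permutation p = 0.0286, adjusted p = 0.0457), and with Mycn-gRNA2 the difference was 1.01 (exact permutation p = 0.0857, adjusted p = 0.114). Without Mycn-gRNA2 replicate 2 that last difference was 1.31 (exact permutation p = 0.0286, adjusted p = 0.0381). With the replicate number as a block, the difference of 0.90 with both guides had an exact sign-flip p of 0.125, the lowest that 4 pairs can give.

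**Figure D2:**
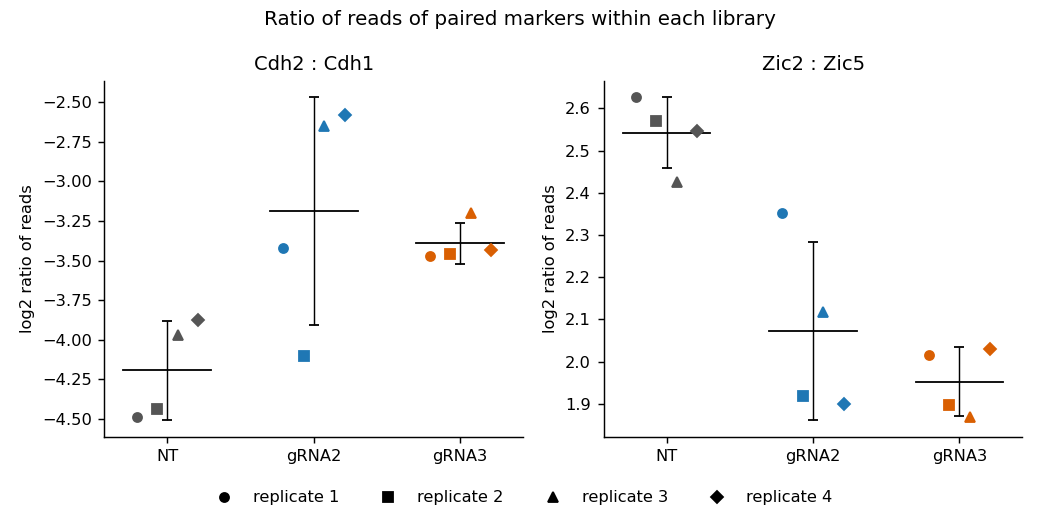
Log2 ratio of the reads of Cdh2 to Cdh1 (left) and of Zic2 to Zic5 (right) in each of the 12 libraries, a marker shape per replicate number, with group means (lines) and SDs (bars). All 8 guide libraries lie below all 4 NT libraries for Zic2 to Zic5, and 7 of 8 lie above them for Cdh2 to Cdh1.

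Set on a scale per length, CPM per kb of exon, the 9 genes spanned from 51.2 ± 2.30 for Cdh1 to 0.0439 ± 0.0563 for Fgf5 in NT (SD, n = 4). Zic2 came second at 38.4 ± 2.22, followed by Zic5 at 8.22 ± 0.728, Pou3f1 at 7.15 ± 0.752, Otx2 at 3.91 ± 0.246, Cdh2 at 2.72 ± 0.709, Sox3 at 0.502 ± 0.155 and Lef1 at 0.298 ± 0.0891. Zic5 and Pou3f1, and Sox3 and Lef1, overlapped between NT libraries and have no order there. With Mycn-gRNA3, Pou3f1 at 18.4 ± 1.87 stood above Zic5 at 8.91 ± 0.433 and Cdh2 at 5.91 ± 0.821 stood above Otx2 at 4.38 ± 0.963, with no overlap between libraries in either pair. With Mycn-gRNA2, Pou3f1 at 14.6 ± 3.61 likewise stood above every library's Zic5, while Cdh2 at 7.52 ± 3.45 overlapped both Zic5 and Otx2. Sox3 and Lef1 were at 2.51 ± 1.19 and 1.34 ± 0.669 CPM per kb with Mycn-gRNA3.

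**Figure D3:**
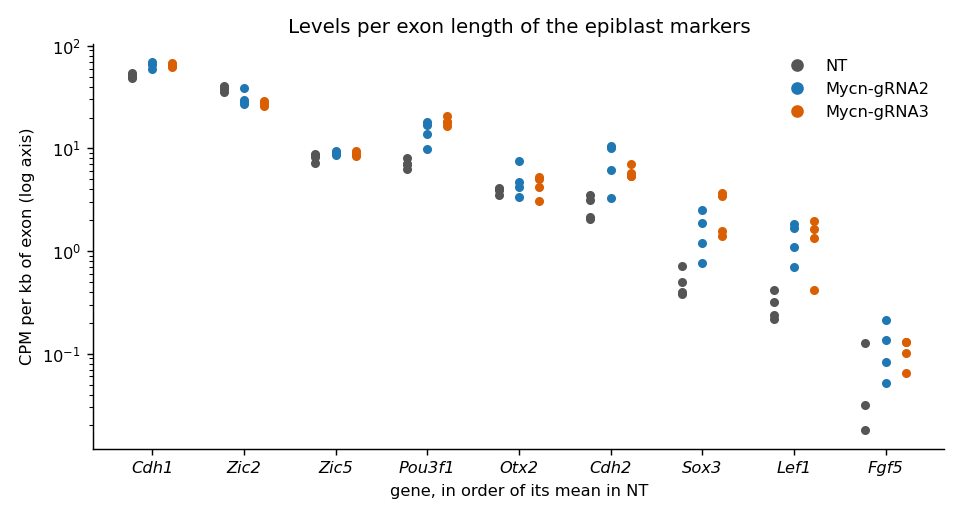
CPM per kb of exon on a log axis for each gene, ordered by its NT mean, a point per library (the NT library with no Fgf5 read is not drawn). Cdh1 and Zic2 are the most abundant in all 3 groups and Fgf5 the least.

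Read by guide, the same counts were found. With Mycn-gRNA2 against NT, 5 of 8 tested members were higher and 1 lower, where 10.1% of all tested genes were higher and 7.06% lower. With Mycn-gRNA3 against NT, 5 were higher and 1 lower, where 14.8% and 12.2% of all genes were. The 5 higher were Pou3f1, Cdh1, Lef1, Sox3 and Cdh2 in both, and the lower one was Zic2. Both comparisons share the 4 NT libraries. Libraries that did not overlap at all gave 4 of 8 members higher with the guides, Pou3f1, Lef1 (by 1.53 against 1.52 CPM), Sox3 and Cdh1, and 0 lower, where 8.55% of all tested genes were higher and 6.87% lower in that way.

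Mycn-gRNA3 and Mycn-gRNA2 were also compared directly, and edgeR called 0 of 8 members, where 0.0% of all tested genes were called. DESeq2 called 0 as well, and 1 member, Pou3f1, had an unadjusted edgeR p under 0.05. The differences, Mycn-gRNA3 minus Mycn-gRNA2 on the log2 scale, were 0.33 for Pou3f1 (95% interval 0.01 to 0.65, edgeR adjusted p = 0.549) and 0.64 for Sox3 (-0.13 to 1.42). For Cdh2 the difference was -0.36 (-0.97 to 0.26), for Lef1 0.03 (-0.77 to 0.82) and for Cdh1 -0.01 (-0.15 to 0.12). The intervals of Pou3f1, Otx2, Sox3, Lef1 and Cdh2 reach beyond a fold of 1.5 in at least one direction. The missing calls therefore do not show that the guides acted alike. These fits are unpaired, although same-numbered libraries of the guides deviated together. With the replicate number as a block edgeR again called 0 of 8, and the differences were 0.34 for Pou3f1 (SE 0.132) and 0.65 for Sox3 (SE 0.278, edgeR adjusted p = 0.491 for each). Mycn-gRNA3 was above Mycn-gRNA2 in 4 of 4 same-numbered pairs for Pou3f1 and Sox3, and in 1 or 2 of 4 for each of the other members. Neither the ratio of the cadherins nor that of the Zic genes differed past the threshold between the guides (log2 differences -0.20 and -0.12, exact permutation p = 0.657 and 0.371, adjusted p = 0.657 and 0.424).

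Per ERCC read, a scale that follows RNA per cell as far as cell counting and RNA yield were equal, the median gene stood higher with the guides, with a log2 fold change of 0.39. On it 7 of 8 members were higher and 0 lower with both guides, where 56.4% of all tested genes were higher and 0.931% lower. Mycn-gRNA2 gave 7 higher and 0 lower (all genes 26.3% and 0.517%), as did Mycn-gRNA3 (60.7% and 0.504%). Members whose libraries did not overlap were again 4 of 8 higher and 0 lower, where 11.5% of all genes were higher and 0.235% lower in that way. Between the guides edgeR and DESeq2 called 0 members per ERCC read, where 0.0069% of all genes, a single gene, was called, and 1 member, Pou3f1, had an unadjusted p under 0.05.

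The members that changed call between the scales were Otx2, Zic5 and Zic2. Otx2 rose by 0.61 per ERCC read with both guides (SE 0.164, edgeR adjusted p = 0.00256) and Zic5 by 0.52 (SE 0.145, edgeR adjusted p = 0.00347), beside 0.39 for the median gene. Zic2 had 7469 ± 946 reads per 1000000 ERCC reads in NT, and the means of the Mycn-gRNA2 and Mycn-gRNA3 libraries were 7472 ± 1738 and 7510 ± 635 (SD, n = 4), a log2 difference of 0.00 (0.0042; 95% interval -0.27 to 0.28, edgeR adjusted p = 0.980). Its fall was thus one relative to the other transcripts, and no fall was detected per ERCC read. Pou3f1 rose by 1.60, Lef1 by 2.53, Sox3 by 2.42, Cdh2 by 1.73 and Cdh1 by 0.75 on this scale, each further than the median gene. Without the filter on low counts, Fgf5 was higher by 1.72 per ERCC read (SE 0.472, edgeR adjusted p = 0.00150), a call that the filtered table does not hold.

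**Figure D4:**
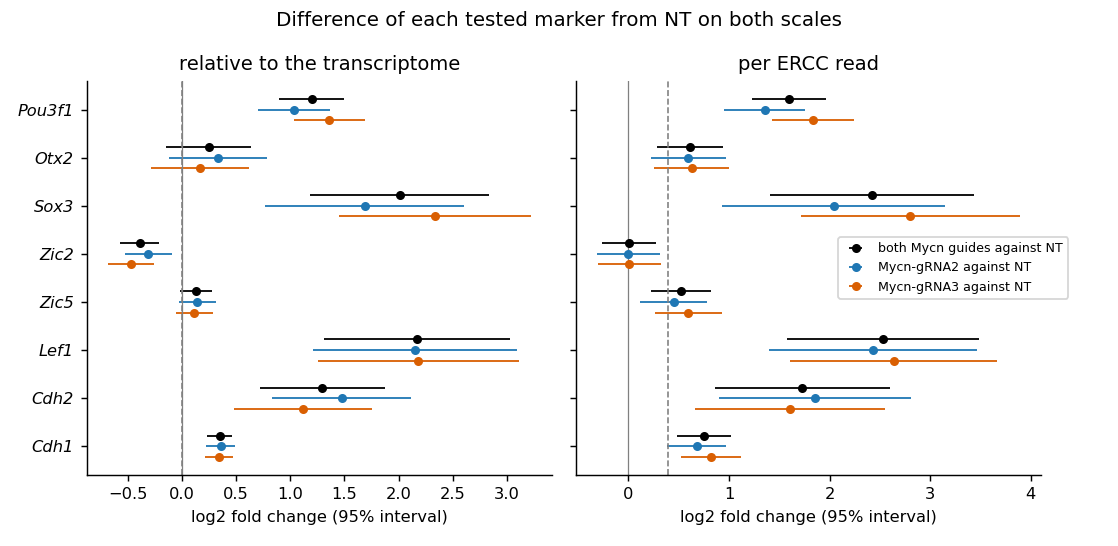
Fitted log2 fold change of the 8 tested genes against NT, relative to the transcriptome (left) and per ERCC read (right), for both guides together (black), Mycn-gRNA2 (blue) and Mycn-gRNA3 (orange), with 95% intervals. The dashed line is the median of all genes for both guides, near 0 on the left and 0.39 on the right, and Zic2 lies below it on both sides.

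Replicates 1 and 2 and replicates 3 and 4 gave different sizes. With both guides, Sox3 differed from NT by 0.98 in replicates 1 and 2 (edgeR adjusted p = 0.161) and by 2.82 in replicates 3 and 4 (edgeR adjusted p = 1.78e-09). Lef1 differed by 1.69 and 2.54, Pou3f1 by 0.92 and 1.46 and Zic2 by -0.27 and -0.51. Cdh2 differed by 1.26 and 1.29 and Cdh1 by 0.38 and 0.33, nearly the same in each. From replicates 1 and 2 alone 178 genes of all were called, against 6385 from replicates 3 and 4 alone and 4034 from all libraries, and 1 member, Pou3f1, was among them. A difference between these subsets was not tested.

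Of 17 other formative and primed epiblast genes, all tested, 6 were higher and 1 lower with both guides relative to the transcriptome, with a median log2 fold change of 0.03, where 14.9% of all tested genes were higher and 13.0% lower. Per ERCC read 9 were higher and 0 lower, where 56.4% of all were higher and 0.931% lower. Relative to the transcriptome, Sall2, a zinc-finger factor, rose by 1.67 (SE 0.168, edgeR adjusted p = 1.48e-05), Dnmt3b and Dnmt3a, the de novo DNA methyltransferases, by 0.99 and 0.53, and Hes6, Pim2 and Sox4 by 0.91, 0.68 and 0.47. Dnmt3l, Utf1, Foxd3, Nodal, Fgf15, T, Eomes, Etv4, Grhl2 and Tcf15 did not pass. Of 13 naive genes, 8 were lower and 1 higher, with a median of -0.36. Prdm14 fell by 0.82, Tbx3 by 0.69, Tet2 by 0.64, Nanog by 0.60, Tcl1 by 0.56, Tfcp2l1 by 0.48, Klf4 by 0.36 and Esrrb by 0.35, whereas Dppa3, a maternal-effect gene, rose by 1.59 from 1.32 ± 0.436 to 3.98 ± 0.675 CPM (SD, n = 4 and 8). Per ERCC read 2 of the 13 naive genes were higher, Dppa3 and Klf2, and 2 lower, Prdm14 and Tbx3, where 56.4% of all genes were higher and 0.931% lower.

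**Figure D5:**
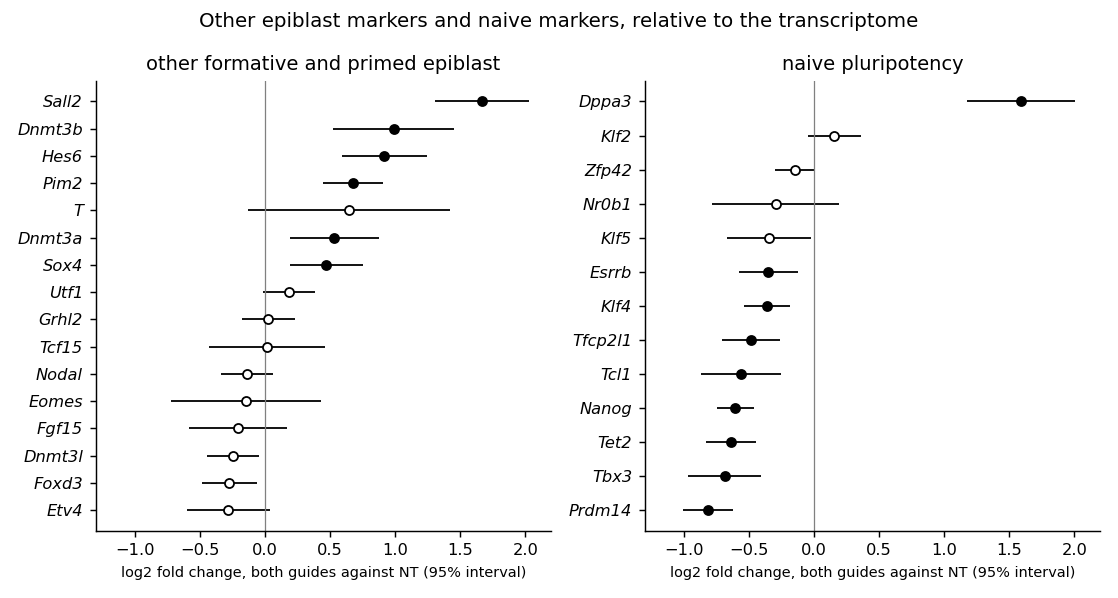
Log2 fold change with both guides against NT, relative to the transcriptome, with 95% intervals, for 16 of the 17 other formative and primed epiblast genes (left) and 13 naive genes (right). Filled points passed the test: 6 of those shown, all higher, on the left, and 1 higher and 8 lower on the right. The gene called lower in the left list is not shown.

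Around Lef1, 13 of 15 Wnt and TCF pathway genes were tested and 2 were higher relative to the transcriptome, a share close to the 14.9% of all genes: Sp5, a target gene of the pathway, by 1.09 (SE 0.177, edgeR adjusted p = 0.000586) and Nkd1, a feedback inhibitor, by 0.61 (edgeR adjusted p = 0.00585). Tcf7l2, a relative of Lef1, fell by 0.27 (edgeR adjusted p = 0.0441). Axin2, a feedback target, had a difference of 0.21 that did not pass (edgeR adjusted p = 0.183). Per ERCC read 10 of the 13 were higher and 0 lower, where 56.4% of all genes were higher. Axin2 was among them with 0.59 (edgeR adjusted p = 0.00539), and Tcf7l2 was not called there (0.14). Around Fgf5, all 14 FGF pathway genes were tested and 1 was higher and 2 lower relative to the transcriptome (all genes 14.9% and 13.0%). The receptor Fgfr2 rose by 1.30 (edgeR adjusted p = 6.50e-06), while the ligand Fgf4 fell by 0.44 and the receptor Fgfr4 by 0.72. Per ERCC read 7 of the 14 were higher and 0 lower (all genes 56.4% and 0.931%), and Fgf4 (-0.05) and Fgfr4 (-0.32) were not called. Of 12 paralogs of the members, 6 were tested, and relative to the transcriptome 0 were higher and 3 were lower (all genes 14.9% and 13.0%). Among the lower were Sox1, the SoxB1 relative of Sox3, by 0.77 (edgeR adjusted p = 5.66e-05) and Tcf7l2. Sox2, the third SoxB1 gene, had a difference of -0.18 with both guides that did not pass (edgeR adjusted p = 0.0963). With single guides Sox2 was called lower with Mycn-gRNA2 relative to the transcriptome and higher with Mycn-gRNA3 per ERCC read.

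Around the cadherins, 21 of 22 adhesion and epithelial-mesenchymal genes were tested, with 5 higher and 3 lower relative to the transcriptome (all genes 14.9% and 13.0%). Esrp1, an epithelial splicing factor, rose by 0.95, the tight-junction claudins Cldn6 and Cldn7 by 1.11 and 1.36, the cadherin Cdh6 by 1.77, and Snai1, a repressor of Cdh1, by 1.52. Ctnna1, the alpha-catenin of adherens junctions, fell by 0.29, the cadherin Cdh4 by 0.57 and fibronectin, Fn1, by 0.34. The other 13 did not pass, among them the mesenchymal genes Vim, Zeb1, Zeb2, Twist1 and Snai2 and the epithelial genes Epcam, Jup, Ocln and Grhl2. Per ERCC read 12 of the 21 were higher, a share close to the 56.4% of all tested genes. On that scale 0 were lower (all genes 0.931%), so Ctnna1, Cdh4 and Fn1 were not called lower there.

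Markers of other cell types were read beside the members, relative to the transcriptome, where 14.9% of all genes were higher and 13.0% lower. The summed levels cover every gene of a list, also those not tested. Of 7 tested neural genes, 4 were higher (Olig2, Olig1, Pax6 and Tubb3) and Sox1 lower, with summed levels of 220.5 to 265.6 CPM in NT, 184 to 310.6 CPM with Mycn-gRNA2 and 223 to 286 CPM with Mycn-gRNA3. Olig2 had 0.0517 ± 0.061 CPM in NT (SD, n = 4) and 11.4 ± 2.24 CPM in the guide libraries (SD, n = 8). Of 6 tested fibroblast and mesenchyme genes 5 were higher. Summed levels of that list were 3.43 to 5.89 CPM in NT, 8.99 to 15.0 CPM with Mycn-gRNA2 and 11.8 to 15.7 CPM with Mycn-gRNA3. Lum and Postn, which were not tested, had 0 reads in NT and means of only 0.0366 and 0.0306 CPM in the guide libraries. Of 12 primitive endoderm genes 7 were higher and 1 lower (462 to 585.5, 518 to 709.7 and 572 to 728 CPM). Of 6 mesendoderm genes 3 were higher (7.76 to 15.1, 13.8 to 20.2 and 15.7 to 20.1 CPM), and of 3 neural crest genes 2 were higher and 1 lower (3.80 to 4.66, 3.13 to 4.65 and 2.62 to 3.62 CPM). Several members are also expressed in neural tissue, and the part of such cells in the members' rises was not tested.

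The genes whose log2 CPM followed each member most closely over the 12 libraries, among 11824 genes averaging at least 1 in log2 CPM, are given as a description. The libraries share groups, so a gene that differs between NT and guides will tend to follow any other that differs in the same direction. Pou3f1 was followed by Gemin4 (Pearson r = 0.987), Sall2 (0.982) and Thbs3 (0.982), and Sox3 by Cbr3 (0.977), Dennd2a (0.968) and Mxra7 (0.967). Lef1 was followed by Rnd1 (0.970), Nop56 (0.966) and Ybx3 (0.960), Cdh2 by Fam171a1 (0.985), Pxdn (0.969) and Aim1 (0.966), and Cdh1 by Tle1 (0.988), Serpine2 (0.984) and Kif21a (0.983). Zic2 was followed by Dzip1 (0.980), Thrap3 (0.976) and Tnrc6c (0.975). The 2 tested members without a call had looser neighbours: Otx2 by Npl (0.937), Hsd17b7 (0.926) and Ppil3 (0.918), and Zic5 by Mtf1 (0.841), Sgk3 (0.834) and Mtmr12 (0.827). Fgf5, with few reads, was followed by Crcp (0.881), Pus10 (0.868) and Lss (0.867), among 11825 genes.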

How the data were processed

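Per the submitters' processing notes, the authors trimmed reads with Trim Galore 0.4.0, counted them with featureCounts of Subread 1.5.0 on mm10 and used edgeR 3.32.1; no aligner, annotation release or strand setting is given there, so antisense reads cannot be told apart. The deposited counts are raw and cover 24421 genes and 92 ERCC RNAs. The deposited log2 values, for 12042 genes and 6 of the 9 members, are normalized to cell number as the authors named the table; within a library they differ from log2(reads + 0.5) by the same shift for every gene, and they were used only in an alternative test.

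The test was edgeR 4.0.16 in R 4.3.3 (robust quasi-likelihood, 1 term for each group, low counts removed by filterByExpr, Benjamini-Hochberg adjustment over all tested genes, threshold 0.05). Library sizes were TMM-scaled totals or, per ERCC read, ERCC totals. Ratios used reads + 0.5 and exact permutation tests in Python 3.11.15. DESeq2 1.42.0 and limma 3.58.1 served as alternatives. The edgeR test relative to the transcriptome was tried on simulated counts, drawn as independent libraries. Per ERCC read those counts have no known answers, so that scale was not checked. No member's exons overlap another gene of the table. Counts of replicates differed beyond sampling noise (chi-square over its degrees of freedom 8.57 to 72.8).

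Named genes were all members, Mycn, up to 4 called genes with the lowest adjusted p of each other list, paralogs, the 3 genes closest in pattern, and those completing small counts or lists, chosen after their values were seen. The members and lists were chosen with earlier results of these data known. Same-numbered Mycn-gRNA2 and Mycn-gRNA3 libraries deviated together (correlations 0.21 to 0.621, each of 4 pairs over 0.1). Differently numbered pairs of these groups ran from -0.626 to 0.453, the highest for Mycn-gRNA2 replicate 4 with Mycn-gRNA3 replicate 3. Whether the replicate numbers pair those groups is therefore not settled. The values of 1 gene of the other lists are not reported here.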

Additional observations from a re-analysis of the deposited data

Results flagged for a closer look

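The ratio of Cdh2 to Cdh1 reads in Mycn-gRNA3 replicate 3 was 0.109, against 0.0900 to 0.0925 in the other 3 Mycn-gRNA3 libraries, and its distance from them passed Dixon's critical value at 95% for 4 values. It was the 1 such case among 60 groups of 4 libraries examined (levels of the 9 genes on both scales and both ratios), and chance gives such a distance in about 1 group in 20. Without this library the difference of the log2 ratio with both guides was 0.89 (exact permutation p = 0.0273, adjusted p = 0.0571).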

How the results depend on the processing

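With both guides relative to the transcriptome, 6 of 8 members were called, and 6 again without any single library, with the replicate block, with no filter, in DESeq2, with RLE factors and from replicates 3 and 4 alone, but 1 from replicates 1 and 2 alone. From those 2 replicates alone the count was also 0 with Mycn-gRNA2, 1 with Mycn-gRNA3 and, per ERCC read, 2 with Mycn-gRNA2 and 1 between the guides. Between the guides it was 1 from replicates 3 and 4 alone relative to the transcriptome (Cdh2, -0.69), and per ERCC read 0 to 2 when libraries were left out in turn, 2 only without Mycn-gRNA2 replicate 4. All genes called with both guides numbered 6157 without Mycn-gRNA2 replicate 1, against 4034, and the cause of these changes was not tested.

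Of the same-numbered NT and guide pairs, 2 of 4 with Mycn-gRNA2 and 3 of 4 with Mycn-gRNA3 had correlations over 0.1. The correlations ran from -0.00504 to 0.351, and the lowest with Mycn-gRNA3 was 0.0999954. Whether the replicate numbers pair NT with the guides is thus not settled either, and the main tests against NT are unpaired. The replicate block took the count per ERCC read with Mycn-gRNA2 from 7 to 6 and changed no other call of a member; it ended those of the ratios, whose sign-flip test over 4 pairs cannot go below an exact p of 0.125: 0.90 for Cdh2 to Cdh1 and -0.53 for Zic2 to Zic5. The same ratio differences were 0.85 and -0.55 from replicates 1 and 2 alone and 0.96 and -0.51 from replicates 3 and 4 alone, where the few libraries left cannot pass after adjustment. Leaving out libraries in turn gave 0.80 to 1.02 for Cdh2 to Cdh1, which lost its call without any NT library or Mycn-gRNA3 replicate 3 (adjusted p 0.0571 to 0.0914, exact permutation), and -0.58 to -0.50 for Zic2 to Zic5, called throughout. Between the guides, Cdh2 to Cdh1 was 0.30 from replicates 1 and 2 alone.

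Signs turned only for differences that were not called. Relative to the transcriptome these were, between the guides, Lef1 (-0.0215 with the replicate block, -0.415 from replicates 1 and 2, -0.21 to 0.32 with libraries left out in turn), Cdh1 (0.00979 from replicates 3 and 4, -0.0535 to 0.011), Otx2 (0.0902 from replicates 3 and 4, -0.30 to 0.10) and Cdh2 (0.18 from replicates 1 and 2). Zic5 from replicates 3 and 4 was -0.00468 with both guides and -0.0171 with Mycn-gRNA3, and Zic2 per ERCC read was -0.00746 with the replicate block, -0.0476 from replicates 3 and 4 and -0.0688 to 0.0795 with libraries left out in turn. Without NT replicate 1, chosen after the data were seen, the Fgf5 read ratio went from 2.60 to 6.54. Counts of a few reads limit Fgf5, and of 18 to 34 reads in NT, Sox3 and Lef1.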
